A study of Canis lupus familiaris with 13 samples.

Results

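The keratin and keratin-associated protein genes were described across 13 biopsies of 4 canine tumors. Members were the rows of the raw count table whose symbol was KRT followed by digits and at most 1 letter, or began with KRTAP. The rule took 69 of 43427 symbols, of which 59 were KRT genes and 10 were KRTAP genes. All 69 matched an entry of the RefSeq annotation of the UU_Cfam_GSD_1.0 assembly, the dog genome also called CanFam4. Of these, 33 lay on chromosome 9 between 21019397 and 21960893, 29 lay on chromosome 27 between 43769282 and 44461835, and the other 7, all KRTAP genes, lay on chromosome 31 between 25672573 and 26462790.

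Keratins are the intermediate filament proteins of epithelial cells, and a filament forms only when an acidic type I keratin pairs with a basic type II keratin. In dogs as in humans the type I genes sit together in 1 cluster and the type II genes in another, with KRT18, a type I gene, at the edge of the type II cluster. KRT8 and KRT18 are the pair of simple and luminal epithelium, KRT5 and KRT14 that of basal and myoepithelial cells, and KRT1 and KRT10 that of the differentiating epidermis. KRT6A, KRT16 and KRT17 are made by keratinocytes after injury and in hair follicles. The hair keratins and the keratin-associated proteins, which cross-link them, build the hair shaft, and a further set of keratins is made in its inner root sheath. For these reasons pathologists use keratins to name the epithelial lineage of a carcinoma, and connective tissue contains little of them.

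The dogs were 3 companion animals with naturally occurring cancer, and every biopsy after the first came from a tumor injected with IMAX, nanoparticles that carry the chemotherapy drug paclitaxel and an immune-stimulating cyclic dinucleotide on polyethyleneimine joined to lithocholic acid. There were no untreated dogs, so the pretreatment biopsy of the same tumor was the baseline. Dog CL had a cranial and a caudal mammary tumor, both sampled before treatment, at 1 week and at 1 month. Dog BM had a tumor of a left mammary gland, sampled before, at 1 week and at 3 weeks. Dog RV had a soft tissue sarcoma, sampled before, at 2 days, and at 2 weeks from both the injection site and an adjacent site. The paper counts the CL and BM times from dose 2, the 2 days of RV from dose 2, and the 2 weeks of RV from dose 3. Another dose therefore lay between the early and the late RV biopsies. Below, the biopsies before treatment (4 libraries) are called before, those at 2 days or 1 week (4 libraries) early, and those from 2 weeks to 1 month (5 libraries) late. Each tumor gave 1 library per time, apart from the pair of RV libraries at 2 weeks, so differences within a tumor compare single pieces of tissue and carry no test. Both CL tumors came from 1 animal, RV was the only sarcoma, and the time after treatment and the number of doses differed between dogs.

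Total counts ran from 11622444 to 29931125 per library, and 3 counts, taken as the floor of detection, corresponded to 0.0833 to 0.262 CPM (counts scaled to the TMM library size, per 1e6). The RV library at 2 days stood apart from the other 3 of that tumor. The summed CPM of 19 genes of the cornified envelope, the outer shell of epidermal cells, was 1294 there and 10.9 to 138 in the other 12 libraries, and the epithelial markers EPCAM and CDH1 were at 13.3 and 55.2 CPM there, compared with 1.02 to 2.13 and 10.1 to 10.5 CPM in the other RV libraries. The summed level of 8 fibroblast markers was 2203 CPM at 2 days and 12292 to 27991 CPM in the other RV libraries. The histology published with the study did not definitively find tumor cells in that biopsy. Its diagnosis there was granulomatous to pyogranulomatous dermatitis, an inflammation of the dermis. It named the BM tumor a carcinoma before treatment, and at 3 weeks it listed carcinomas together with osteosarcoma features and carcinosarcoma. Libraries also differed in the balance of genes from gene-dense and gene-poor stretches of the genome. The median log2 deviation of the 20% of tested genes with the most neighbors minus that of the 20% with the fewest was -1.31 for CL caudal before, -1.0 for CL caudal at 1 month and -1.48 for RV at 2 days, and it lay between -0.32 and 1.34 in the rest. Keratin genes had a median of 61 annotated genes within 500000 bases on either side, compared with 24 for tested genes, so this balance is given beside some results below. The part of this balance in the keratin levels was not tested. In CL caudal the balance was -1.31 before, 0.31 at 1 week and -1.0 at 1 month, while members held 0.0490%, 0.474% and 0.0717% of counts. In BM it was 0.37 before, 0.87 at 1 week and 1.34 at 3 weeks, while members held 1.10%, 0.400% and 0.0255% of counts. RV at 2 days had the lowest balance, and members held 0.510% of its counts, compared with 0.0905% in RV before.

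Keratins took very different shares of the transcriptome. Members held 1.10% of all counts in BM before, 0.400% at 1 week and 0.0255% at 3 weeks. In CL cranial the share was 0.634%, 0.528% and 0.374% at the 3 times, and in CL caudal it was 0.0490%, 0.474% and 0.0717%. In RV it was 0.0905% before, 0.510% at 2 days, and 0.0838% and 0.0492% at the injection and adjacent sites at 2 weeks. These were bulk samples, in which fewer cells of a type and less RNA per cell cannot be told apart. The number of members with at least 10 counts was 60 of 69 in RV at 2 days, 16 in each other RV library, and 14 to 29 in the mammary libraries. By CPM, 44 of the 69 members were highest in RV at 2 days, 14 in a BM library and 7 in a CL library. The matching share over all genes is not given here, so such counts describe the members only. Of all tested genes, 27.7% were at least 4-fold higher in RV at 2 days than in RV before. The 3 members highest in another RV library were KRT7, KRT24 and KRT222, and KRTAP25-1 had 0 counts everywhere.

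**Figure D1:**
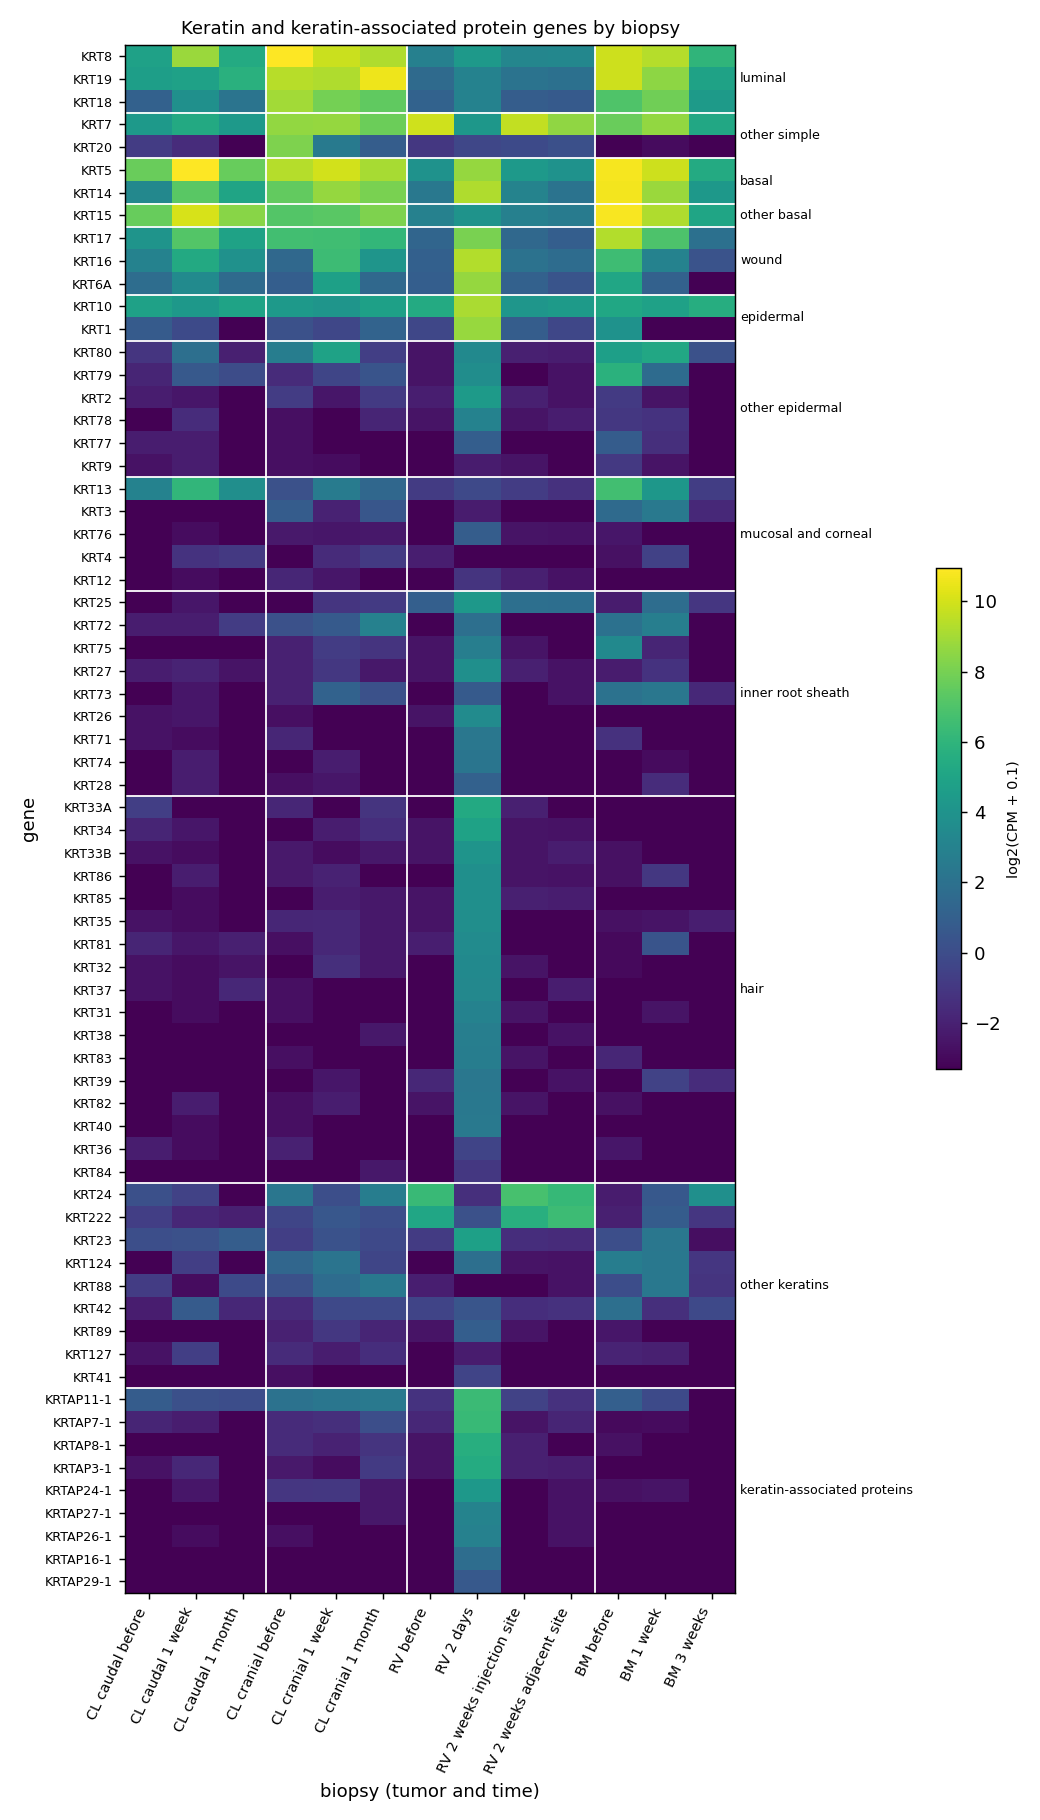
Each row is 1 of the 68 members with any counts, each column 1 of the 13 biopsies, and the color is log2(CPM + 0.1), with members grouped by class and ordered by mean CPM within it. Rows of hair keratins and keratin-associated proteins are higher in the RV column at 2 days than in most or all other columns, while KRT7, KRT24 and KRT222 are lower in that column than in the other RV columns.

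The leading keratin differed by tumor. To compare genes, CPM was divided by the span of the gene in kilobases, introns included, since exon lengths were not used here. KRT15, a keratin of basal and hair follicle stem cells, led in BM before at 431 CPM per kilobase, followed by KRT14 at 375 and KRT5 at 274. In CL cranial the leader was KRT8 before at 258 CPM per kilobase, KRT5 at 1 week at 157 and KRT19 at 1 month at 362. In CL caudal KRT15 led before at 47.2 and at 1 month at 80.1 CPM per kilobase, and KRT5 led at 1 week at 304. KRT7 led in 3 of the 4 RV libraries, at 65.1 CPM per kilobase before, 54.7 at the injection site and 25.9 at the adjacent site, and KRT16 led at 2 days at 217. In BM at 3 weeks KRT10 came first at 9.91 CPM per kilobase, ahead of KRT8 at 8.55 and KRT15 at 8.02. Some of this order depends on the division by span. By CPM alone KRT8 led in BM at 3 weeks, at 65.6 compared with 48.2 for KRT10. In CL caudal before KRT5 led by CPM, at 209 compared with 201 for KRT15. The leader was the same by both measures in the other libraries.

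Among luminal keratins, KRT8 (type II, chromosome 27, 44422008 to 44429675) measured 1976, 908 and 609 CPM in CL cranial before, at 1 week and at 1 month. In BM it measured 930, 661 and 65.6 CPM, and in CL caudal 28.7, 448 and 42.8 CPM. In RV it stayed between 7.20 and 20.2 CPM. The 9 mammary libraries therefore all lay above the 4 sarcoma libraries, and the lowest mammary values were those of CL caudal before and at 1 month, the pair with the low gene-density balance. By exact 95% intervals that cover counting error only, KRT8 was 3.24-fold lower (3.16 to 3.33) at 1 month than before in CL cranial and 14.2-fold lower (13.5 to 14.9) at 3 weeks than before in BM, and it was 15.6-fold higher (14.2 to 17.1) at 1 week than before in CL caudal.

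KRT18, the type I partner of KRT8, measured 505, 250 and 178 CPM in CL cranial, 129, 231 and 21.6 CPM in BM, 2.09, 14.4 and 4.37 CPM in CL caudal and 1.57 to 7.91 CPM in RV. It moved with KRT8 in direction in both CL tumors, while in BM at 1 week KRT18 was above and KRT8 below its level before. KRT19, a type I keratin without a tail domain that is found in ducts, measured 693, 613 and 1547 CPM in CL cranial and 25.8, 29.1 and 54.0 CPM in CL caudal. In BM it measured 920, 369 and 29.6 CPM, a 31.1-fold lower level (28.9 to 33.6) at 3 weeks than before. KRT19 was thus highest at 1 month in both CL tumors, and in CL caudal it did not show the peak at 1 week that KRT8 and KRT18 showed.

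Of the other simple keratins, KRT7 (type II, glandular ducts and some mesenchymal tumors) was the leading keratin of the sarcoma per kilobase of span. It measured 957 CPM in RV before, 18.7 at 2 days, 804 at the injection site and 382 at the adjacent site at 2 weeks. The level at 2 days was 51.2-fold lower (45.9 to 57.3) than before. In CL cranial it measured 400, 414 and 212 CPM, in BM 208, 396 and 36.8 CPM, and in CL caudal 20.3, 39.8 and 21.3 CPM. The sarcoma levels outside 2 days therefore overlapped those of the carcinomas, and KRT7 did not separate the tumor types.

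KRT20, a type I keratin of gut epithelium, urothelium and Merkel cells, was measured above 10 CPM in 1 library only. It had 5952 counts in CL cranial before, 136 at 1 week and 20 at 1 month, or 288, 5.47 and 1.75 CPM. The level was 52.7-fold lower (44.4 to 62.9) at 1 week and 165-fold lower (107 to 270) at 1 month. In the other 10 libraries it had 0 to 17 counts. KRT19 was at 693 CPM before and 1547 CPM at 1 month in the same tumor, so the luminal and simple keratins of CL cranial did not move together.

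Both basal keratins were highest in BM before or in CL caudal at 1 week. KRT5 (type II, chromosome 27, 44078715 to 44085082) measured 1746, 948 and 42.0 CPM in BM, 209, 1938 and 197 CPM in CL caudal, and 649, 1000.0 and 534 CPM in CL cranial. In RV it measured 15.4 CPM before, 418 at 2 days, and 20.6 and 15.4 at 2 weeks. KRT5 was lower at the late than at the early biopsy in all 4 tumors. KRT14 (type I, chromosome 9, 21067094 to 21071483) measured 1647, 446 and 19.8 CPM in BM, 9.87, 156 and 32.2 CPM in CL caudal, 184, 413 and 270 CPM in CL cranial, and 5.13, 602, 8.27 and 4.23 CPM in RV before, at 2 days and at the 2 late sites. At 3 weeks in BM, KRT5 was 41.5-fold lower (39.0 to 44.3) and KRT14 83.3-fold lower (76.0 to 91.3) than before. KRT14, KRT16 and KRT17 share long stretches of near-identical sequence, and how reads shared between such genes were counted was not given in the sources used here, so their levels are not fully separate.

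KRT15 measured 1828, 608 and 34.1 CPM in BM, 201, 1104 and 340 CPM in CL caudal and 142, 157 and 289 CPM in CL cranial. In RV it measured 7.60 CPM before, 16.2 at 2 days and 7.33 and 5.93 at the late sites. The level in RV at 2 days was thus near the other RV levels, in a library where KRT14 was 117-fold higher (93.7 to 149) than before.

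The peak of CL caudal at 1 week involved basal, luminal and wound keratins together. By a log2 change of at least 2 (4-fold) in CPM with a prior count of 2, 12 of the 27 tested members were higher at 1 week than before, among 13.2% of all tested genes, and 1 was lower (KRT88), among 3.01%. The 12 were KRT5, KRT8, KRT13, KRT14, KRT15, KRT16, KRT17, KRT18, KRT42, KRT79, KRT80 and KRT124. At 1 month no tested member was 4-fold higher (1.74% of genes) and 3 were lower (1.35% of genes), namely KRT1, KRT20 and KRT24, each at 0 counts. The epithelial marker list did not follow: 3 of its 8 genes were higher at 1 week, and EPCAM measured 49.4, 13 and 64.1 CPM at the 3 times. Other lists did move with it: 6 of 7 tested smooth muscle and myoepithelium markers were higher at 1 week, 5 of them at least 4-fold, with a median log2 change of 2.66. Of 8 hemidesmosome genes 7 were higher, 5 at least 4-fold, with a median of 2.51, and of 14 desmosome genes 10 were higher, 5 at least 4-fold. Skeletal muscle markers were also higher in 7 of 9, 4 at least 4-fold, with a median of 1.99. So were 11 of 13 other intermediate filament genes and 12 of 13 cornified envelope genes. The part of the mix of cells in the keratin peak was not tested. The gene-density balance of the libraries was -1.31, 0.31 and -1.0 in the same order, and its part in the keratin peak was not tested.

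**Figure D2:**
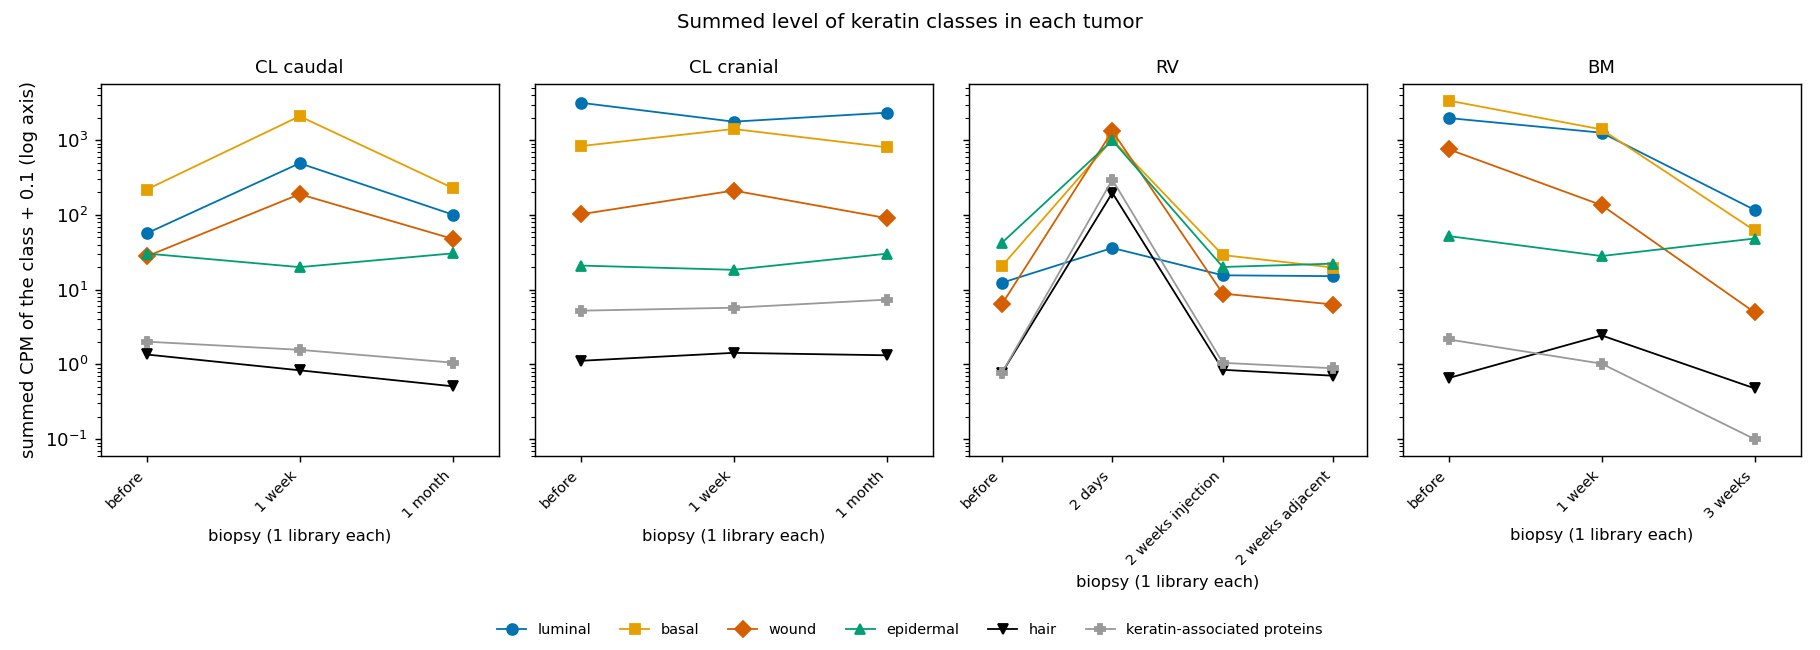
Each panel is 1 tumor, the x axis gives its biopsies in order of time (the 2 RV sites at 2 weeks side by side), and the y axis gives the summed CPM of a keratin class plus 0.1 on a log axis. Points are single libraries without error. The basal class reached 2093 CPM at 1 week in CL caudal, 5 of the 6 classes were between 198 and 1322 CPM at 2 days in RV, and the luminal, basal and wound classes were at 117, 61.8 and 4.87 CPM at 3 weeks in BM.

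In BM most keratins were lower at 3 weeks than before, and fewer were lower at 1 week. At 1 week 7 of 27 tested members were at least 4-fold lower than before (5.46% of genes) and 5 were higher (6.81% of genes). The lower ones were KRT1, KRT6A, KRT13, KRT16, KRT17, KRT42 and KRT79, mostly keratins of stratified or injured epithelium, and the higher ones were KRT23, KRT24, KRT25, KRT88 and KRT222. At 3 weeks 21 of 27 were at least 4-fold lower (15.3% of genes), with a median log2 change of -3.82 over the 27 and -0.07 over all tested genes, and 1 was higher (6.32% of genes). That 1 gene was KRT24, a type I keratin of keratinocytes and other epithelia, with 4 counts before, 40 at 1 week and 332 at 3 weeks.

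Some members of BM with 385 to 3519 counts before treatment had 0 to 12 counts at 3 weeks, examples chosen for a large difference. KRT79, a type II keratin of the infundibulum and sebaceous gland, had 2021, 85 and 0 counts, and was at least 446-fold lower at 3 weeks against a floor of 3 counts. KRT13, a mucosal type I keratin, had 3519, 521 and 12 counts, 194-fold lower (111 to 376). KRT75, a companion layer keratin, had 385, 5 and 0 counts, and KRT1 had 549, 0 and 0 counts, at least 121-fold lower. KRT10 did not follow its partner KRT1, with 36.8, 28.1 and 48.2 CPM at the same times. Other epithelial genes moved with the keratins: 7 of 8 epithelial markers and 12 of 14 tested desmosome genes were at least 4-fold lower at 3 weeks than before (15.3% of genes). Fibroblast markers moved the other way, with 7 of 8 at least 4-fold higher at 3 weeks (6.32% of genes) and COL1A1 at 186, 7310 and 40138 CPM over the 3 times. The part of a different mix of cells in the biopsy was not tested.

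In CL cranial at 1 week 6 of 27 tested members were at least 4-fold higher than before (5.18% of genes) and 3 were lower (0.979% of genes). At 1 month 5 were higher (5.14% of genes) and 2 were lower (10.9% of genes). The wound keratins KRT16 and KRT6A were among the higher ones at 1 week, KRT16 from 2.71 to 89.3 CPM, 32.9-fold (25.3 to 43.8), and KRT6A from 1.79 to 27.8 CPM, 15.5-fold (11.1 to 22.2). At 1 month KRT16 was at 17.0 CPM and KRT6A at 2.71 CPM. KRT17, the other wound keratin, was at 97.4, 94.7 and 70.8 CPM and did not share this pattern. In the same comparison at 1 week 6 of 7 neutrophil markers were at least 4-fold higher, with a median log2 change of 3.68, and 8 of 10 lymphocyte markers were, with a median of 2.93. Of 13 cornified envelope genes 12 were higher, 4 at least 4-fold. The part of these cells in the keratin levels was not tested. KRT80, a type II keratin of differentiating epithelia, measured 6.54, 30.1 and 0.52 CPM, and KRT72, an inner root sheath keratin, 1.07, 1.57 and 7.69 CPM.

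Members with at least 10 counts numbered 16 in each RV library outside 2 days, 14 in BM at 3 weeks and up to 29 in the other mammary libraries. RV before and at both 2-week sites lay below all 9 mammary libraries for 8 of the 27 tested members (8.94% of genes), namely KRT5, KRT8, KRT13, KRT14, KRT15, KRT17, KRT19 and KRT80. They lay above all mammary libraries for 2 members (8.36% of genes), KRT24 and KRT222. With 1 sarcoma this is a description of the tumors and no test of the tumor types. KRT24 measured 83.0 CPM in RV before, 0.28 at 2 days, 113 at the injection site and 76.2 at the adjacent site, and at most 13.9 in a mammary library. KRT222, a keratin-like gene, measured 35.2, 1.07, 50.6 and 87.3 CPM in the same order, and at most 1.67 in a mammary library. Both genes are on chromosome 9, KRT24 from 21917777 to 21922835 and KRT222 from 21951724 to 21960893. KRT7, KRT24 and KRT222 were the 3 tested members at least 4-fold lower at 2 days than before (9.95% of genes).

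At 2 days 15 of the 27 tested members were at least 4-fold higher than before (27.7% of genes), with a median log2 change of 3.78 over the 27 and 0.26 over all tested genes. Wound, epidermal and basal keratins were among them. KRT16 measured 635 CPM at 2 days and 2.0 before, 318-fold higher (222 to 471), KRT6A 421 and 1.80, 234-fold higher (161 to 355), and KRT17 267 and 2.47, 108-fold higher (78.3 to 154). At 2 weeks none of the 27 was 4-fold higher (0.437% of genes) or lower (0.746% of genes) than before.

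KRT1 and KRT10, the pair of the upper epidermis, were highest in RV at 2 days of all libraries. KRT1 had 7604 counts there, 11 before and 26 and 12 at the late sites, and 0 to 549 in the mammary libraries. KRT10 had 10145 counts at 2 days, 622 before, and 269 and 355 at the late sites, or 569, 41.5, 18.2 and 21.5 CPM. Outside RV at 2 days KRT10 stayed between 17.6 and 48.2 CPM in all 12 libraries while KRT1 ran from 0 to 15.3 CPM. KRT2, a keratin of the uppermost living epidermis, had 382 counts at 2 days and at most 16 elsewhere, and KRT78 had 141 and at most 14. KRT77 was at 1.85 CPM at 2 days and 1.67 in BM before. All 13 tested cornified envelope genes were at least 4-fold higher at 2 days than before (27.7% of genes), involucrin (IVL) from 0.60 to 220 CPM and KRTDAP from 1.0 to 234 CPM. The desmosomal cadherin DSG1 went from 0.60 to 211 CPM. The 7 neutrophil markers summed to 6780 CPM at 2 days and 40.0 to 49.1 CPM in the other RV libraries. The part of overlying skin in that biopsy was not tested.

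**Figure D3:**
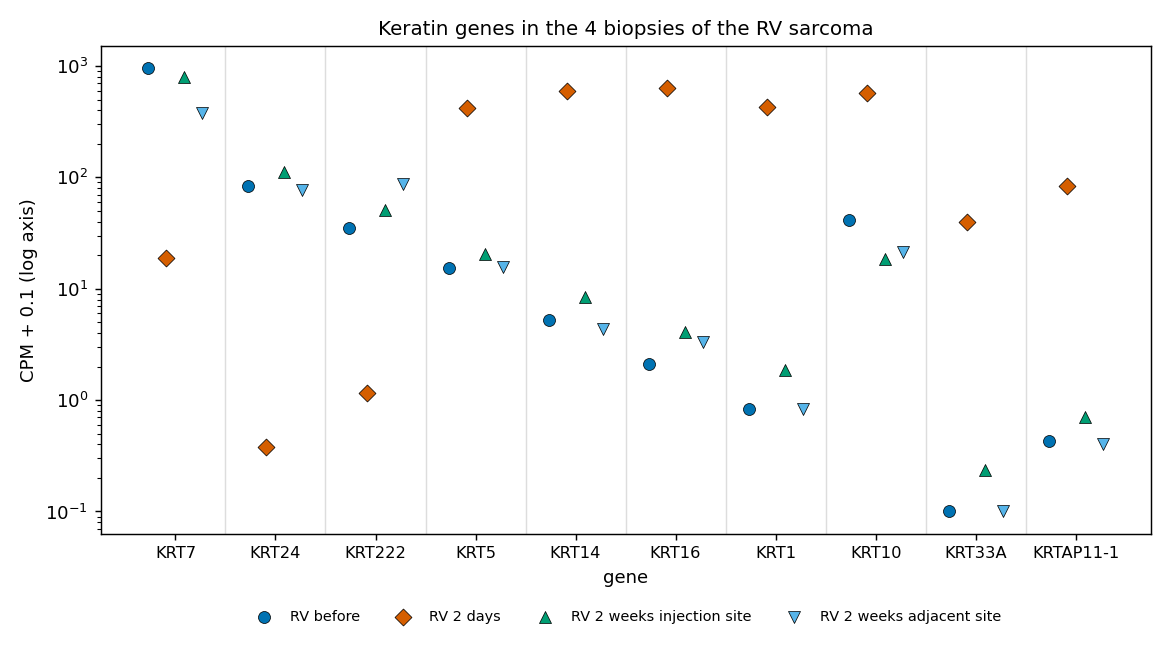
The x axis lists 10 keratin genes and the y axis gives CPM plus 0.1 on a log axis, with 1 marker for each of the 4 RV libraries and no error. For KRT7, KRT24 and KRT222 the 2-day marker is the lowest of 4, at 18.7, 0.28 and 1.07 CPM, and for the other 7 genes it is the highest.

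The hair keratins had the sharpest pattern across libraries. All 17 were highest in RV at 2 days, where they had 7 to 713 counts with a median of 178, and none passed the filter on low counts used for testing. For this and later counts of members highest in that library, the share over all genes is not given here. Of all tested genes, 27.7% were at least 4-fold higher there than in RV before. Outside that library the highest count of any hair keratin was 34 (KRT81 in BM at 1 week), and 3 of the 17 reached 10 counts in any other library. KRT33A (type I, chromosome 9, 21290215 to 21295237) had 713 counts at 2 days, 0 before, 2 and 0 at the late sites, and 0 to 9 in the mammary libraries. KRT34 had 532 counts at 2 days and 0 to 3 elsewhere, and KRT33B 296 and 0 to 2. KRT84 and KRT36, at 7 and 12 counts, were the lowest at 2 days. KRT33A and KRT33B, and KRT81, KRT83 and KRT86, are close copies of each other, and reads shared among them may have been split or lost.

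The keratin-associated proteins followed the hair keratins. Of the 10 genes, 9 were highest in RV at 2 days, and KRTAP25-1, whose annotated span lies inside that of KRTAP24-1, had 0 counts in all 13 libraries, which allows up to 3 counts in each. KRTAP11-1 (chromosome 31, 26421892 to 26462790) had 1488 counts at 2 days, 5 before, 9 and 5 at the late sites, and 0 to 118 in the mammary libraries. It was the only KRTAP gene that passed the filter, and it measured 0.96 to 5.33 CPM in the CL libraries. KRTAP7-1, a high-glycine-tyrosine protein, had 1411 counts at 2 days and 0 to 11 elsewhere, and KRTAP8-1, of the same kind, 874 and 0 to 5. Summed over the class, keratin-associated proteins measured 296 CPM at 2 days, 0.67 to 0.95 in the other RV libraries, and 0.00 to 7.25 in the mammary libraries.

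Of the 9 inner root sheath keratins, 6 were highest in RV at 2 days and 3 passed the filter. KRT25 (type I) measured 19.1 CPM at 2 days, 1.93 before and 3.59 and 3.45 at the late sites. In BM it had 4 counts before, 95 at 1 week and 9 at 3 weeks. In the CL tumors it had 0 to 9 counts. KRT72 and KRT73, which are type II and neighbors on chromosome 27, were highest outside RV, KRT72 at 7.69 CPM in CL cranial at 1 month and KRT73 at 5.04 CPM in BM at 1 week. KRT75 had 385 counts in BM before and 123 in RV at 2 days. Of the other hair follicle genes, trichohyalin (TCHH) was at 11.9 CPM in RV at 2 days and at most 1.72 elsewhere, and the hair keratin regulator HOXC13 at 2.86 CPM at 2 days and 5.92 in BM before.

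Among mucosal and corneal keratins, KRT13 measured 97.8, 18.5 and 0.50 CPM in BM, 7.96, 68.0 and 13.1 in CL caudal, 1.07, 5.95 and 2.62 in CL cranial and 0.30 to 0.79 in RV. Its level in RV at 2 days was 0.79 CPM, close to 0.47 before, in the library where KRT1 and KRT16 peaked. KRT3, the type II corneal keratin, had up to 152 counts in BM and up to 34 in CL cranial, and 0 to 2 in CL caudal and RV. KRT4, the usual partner of KRT13, had at most 16 counts in any library, and KRT76, an oral mucosa keratin, had 31 counts in RV at 2 days and at most 3 elsewhere. KRT12 had at most 6 counts. KRT9, the keratin of palm and sole skin, had at most 15.

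Type II and type I partners were compared as log2 changes within each tumor. KRT8 and KRT18 differed by 0.11 to 1.33 log2 units in size in the 8 changes from before. KRT5 and KRT14 differed by 0.01 to 2.09, with the largest gap in RV at 2 days, where KRT14 changed by 6.85 and KRT5 by 4.75. KRT6A and KRT16 differed by 0.45 to 2.27. KRT1 and KRT10 had the largest gap of the 4 pairs, in BM at 3 weeks, where KRT1 changed by -7.29 and KRT10 by 0.39. At 1 week in BM they changed by -7.29 and -0.39, in RV at 2 days by 9.0 and 3.78, and in CL caudal at 1 month by -4.13 and 0.09. KRT1 was at 0 counts in BM at both later times, so its change depends on the prior count.

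**Figure D4:**
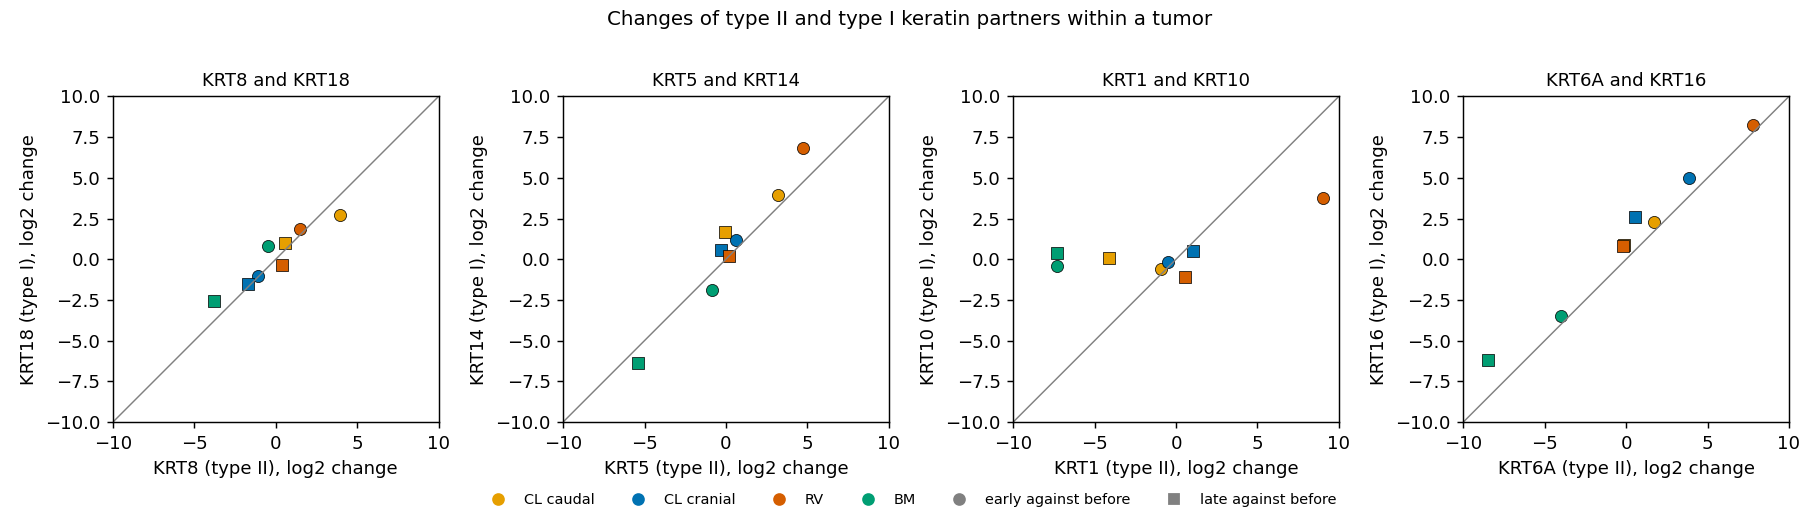
Each panel plots the log2 change in CPM (prior count 2) of a type I keratin on the y axis against that of its type II partner on the x axis, with 1 point per tumor for early (circles) and late (squares) biopsies against before, colored by tumor, and a grey line of equal change. Gaps between partners are 0.11 to 1.33 for KRT8 with KRT18, 0.01 to 2.09 for KRT5 with KRT14 and 0.45 to 2.27 for KRT6A with KRT16, and KRT1 spans -7.29 to 9.0 while KRT10 spans -1.06 to 3.78.

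Summed over a class, the mean log2 change early against before, over 4 tumors, was 0.79 ± 1.89 (SD, n = 4) for luminal, 2.09 ± 3.0 for basal, 2.26 ± 4.23 for wound, 0.72 ± 2.58 for epidermal, 1.79 ± 2.22 for inner root sheath, 2.39 ± 3.90 for hair keratins and 1.82 ± 4.54 for keratin-associated proteins. In each of these classes the SD over the 4 tumors exceeded the mean of this comparison. Without RV the means over the 3 mammary tumors were 0.54 ± 2.23 for luminal, 0.91 ± 2.27 for basal, 0.45 ± 2.68 for wound and -0.56 ± 0.35 for epidermal keratins (SD, n = 3). Late against before, the basal class changed by -5.78 in BM and by -0.05 to 0.21 in the other 3 tumors, and the wound class by -7.25 in BM and by -0.17 to 0.78 in the others. Late against early, the basal and wound classes were lower in 4 of 4 tumors, by -3.48 ± 2.0 and -3.86 ± 2.84.

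The late RV sites differed little from each other beside the change at 2 days. KRT7 was 1.08 log2 units higher at the injection site than at the adjacent site, KRT24 was 0.56 higher and KRT222 was 0.79 lower. KRT8 differed by -0.05, KRT19 by 0.18 and KRT5 by 0.42. With 1 library per site these differences have no error.

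Across tumors, the members were tested with edgeR's quasi-likelihood test with the tumor as a block, on the 20118 genes that passed the filter on low counts, 27 of which were members. The common biological coefficient of variation was 0.672 with 7 residual degrees of freedom. The 42 other members did not pass, and 37 of these were highest in RV at 2 days. For early against before, edgeR called 0 of 27 members at an adjusted p under 0.05 (0.00497% of genes), and 3 had an unadjusted p under 0.05, all higher (7.7% of genes were higher and 3.16% lower at that level). Without RV at 2 days 2 of 27 did (6.72% of genes higher), and without BM 11 of 26 did, all higher (8.3% of genes higher). For late against before it called 0 members (0% of genes), and 1 had an unadjusted p under 0.05, lower (2.72% of genes lower, 1.28% higher). For late against early it called 0 members (0.00994% of genes), and 12 had an unadjusted p under 0.05, all lower (17.7% of genes lower, 8.87% higher). The 12 became 7 of 27 without RV at 2 days (10.6% of genes lower), 6 of 26 without the tumor RV (10.1% of genes lower) and 7 of 27 with the late RV sites summed (12.4% of genes lower), again all lower. DESeq2, run as an alternative, called 2 of 27 members early against before (4.75% of genes), 0 late against before (0.0348% of genes) and 14 late against early (23.9% of genes). In counts simulated at the same coefficient of variation, 21.7% of DESeq2 calls early against before were false. That simulation gave every gene the same spread and each changed gene the same change in every tumor. The share of false calls in the real data, or late against early, was therefore not measured. There edgeR recovered 108 of 200 genes changed by 3 log2 units, so its 0 calls leave room for missed changes. Without the filter on low counts edgeR called 6 of 68 members late against early (3.06% of genes).

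With all libraries and the tumor as block, fitted fold changes were mostly of 1 sign within a comparison, and no member passed the threshold. Early against before, 24 of 27 members had a higher fitted level, with a median log2 fold change of 1.32 compared with 0.25 over all tested genes. Without RV at 2 days, a choice made after the data were seen, 18 of 27 were higher, with a median of 0.65 compared with 0.07. Without the tumor RV 15 of 26 were higher and 11 lower, with a median of 0.29 compared with 0.06. With no tumor block 14 of 27 were higher and 13 lower. Late against early, 26 of 27 were lower, with a median of -2.09 compared with -0.35 over all genes, and without RV at 2 days 22 of 27 were lower with a median of -1.41. Late against before, 22 of 27 were lower with a median of -0.74, and with BM left out 14 of 26 were higher with a median of 0.12.

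The members with the smallest p values were few and mostly of low level. KRT25 had an early log2 fold change of 3.99 ± 0.95 (SE, adjusted p = 0.164, edgeR) and was higher in 4 of 4 tumors, although in both CL tumors it had at most 2 counts in 3 of the 4 libraries compared. KRT80 was higher in 4 of 4 tumors early, by 2.65 ± 0.86 (adjusted p = 0.304, edgeR), and lower in 4 of 4 late against early, by -5.72 ± 0.88 (adjusted p = 0.0603, edgeR). Its levels before, early and late were 0.36, 3.67 and 0.14 CPM in CL caudal, 26.4, 37.0 and 1.05 in BM, and 0.07, 10.7, and 0.14 and 0.12 in RV. Late against before KRT80 was lower in 3 of 4 tumors, by -3.07 ± 0.91 (adjusted p = 0.974, edgeR). KRT23, a type I keratin of simple epithelia and keratinocytes, was higher in 4 of 4 tumors early by 3.19 ± 1.34 (adjusted p = 0.438, edgeR), from 0.47 to 27.6 CPM in RV and from 0.97 to 4.86 CPM in BM, compared with 0.53 to 1.13 CPM in CL cranial.

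Late against early, the next members after KRT80 were KRT124, KRT5 and KRT18, each lower in 4 of 4 tumors. KRT124, a gene of the type II cluster, changed by -4.72 ± 1.2 (adjusted p = 0.0642, edgeR), KRT5 by -3.30 ± 0.92 (adjusted p = 0.0713, edgeR) and KRT18 by -1.99 ± 0.55 (adjusted p = 0.0716, edgeR). KRT8 and KRT14 changed by -1.99 ± 0.80 and -3.79 ± 1.46 and were lower in 4 of 4 tumors (adjusted p = 0.146 and 0.134, edgeR). KRT19 changed by -0.02 ± 0.76, lower in 2 tumors and higher in 2 (adjusted p = 0.989, edgeR). The only member with a higher fitted level was KRT24, by 2.72 ± 1.52, higher in 3 of 4 tumors (adjusted p = 0.271, edgeR). KRT20 had early and late log2 fold changes against before of -2.66 ± 1.57 and -3.39 ± 1.70 (adjusted p = 0.537 and 0.974, edgeR), set by CL cranial.

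**Figure D5:**
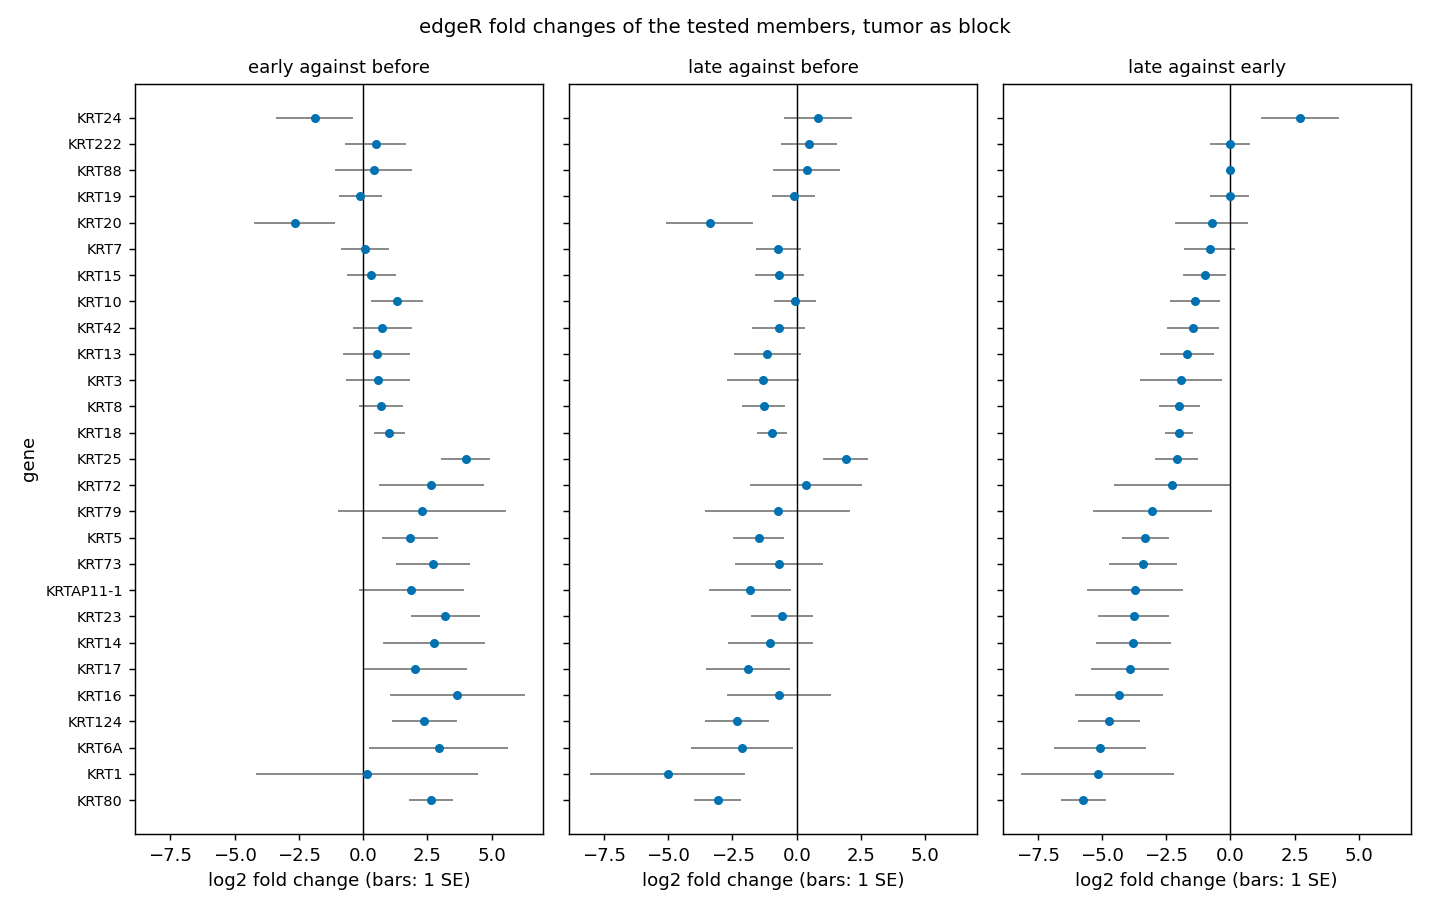
Each panel is 1 comparison of time groups, each row 1 of the 27 tested members ordered by the late against early value, and points give edgeR log2 fold changes with the tumor as block. Bars are 1 standard error, and KRT88 has no bar in the right panel because its fitted change was too near 0 to give one. In the right panel 26 of 27 points lie left of 0, and none of the 27 passed an adjusted p of 0.05 in any panel.

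The genes that work with keratins gave the same kind of result. Of 13 tested cornified envelope genes, 14 desmosome genes, 8 hemidesmosome genes, 11 hair follicle genes, 19 epithelial regulators and 13 other intermediate filament genes, edgeR called 0 in each of the 3 comparisons. Late against early, 10 cornified envelope, 7 desmosome, 5 hemidesmosome, 6 hair follicle, 5 regulator and 2 other filament genes were lower at an unadjusted p under 0.05 and 0 were higher, and DESeq2 called 12, 9, 5, 3, 6 and 2 in the same order. Over all genes 17.7% were lower at that level and DESeq2 called 23.9%. Early against before, 2 cornified envelope genes, 1 hair follicle gene and 1 other filament gene were higher at an unadjusted p under 0.05 (7.7% of genes). At that level 1 hair follicle gene was lower (3.16% of genes). DESeq2 called 2, 2 and 1 in these 3 lists and 0 in the others, compared with 4.75% of all genes. Late against before, 2 desmosome, 3 hemidesmosome, 1 hair follicle and 1 regulator gene were lower at that level (2.72% of genes). DESeq2 called 0 (0.0348% of genes). In BM at 3 weeks 14 of 19 regulators and 7 of 8 hemidesmosome genes were at least 4-fold lower than before (15.3% of genes). The basal regulator TP63 was at 152, 20.0 and 13 CPM in BM over the 3 times. In RV at 2 days 13 of 19 regulators and 11 of 14 desmosome genes were at least 4-fold higher than before (27.7% of genes). Vimentin (VIM), the intermediate filament protein of mesenchymal cells, ran opposite to the summed keratins in BM, at 1016, 4046 and 8990 CPM. In RV at 2 days VIM was at 1314 CPM compared with 8364 to 11543 in the other RV libraries. It was lower there as KRT7, KRT24 and KRT222 were, and opposite to the basal, wound, epidermal and hair keratins. In CL caudal it was at 6045, 10466 and 7167 CPM, highest at 1 week as the keratins were.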

How the data were processed

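Strand-specific RNA-seq libraries of 13 tumor biopsies were analysed. The deposited values are raw counts for each gene symbol, which the authors made in Strand NGS from alignments to CanFam4.0. The rule for counting a read, and for reads shared by several genes, was not given in the sources used here. No column belonged to a sample outside the series. Groups came from the treatment labels. Each tumor's own libraries deviated together between before and late (mean r 0.587 for the same tumor, -0.20 for different tumors). The link was weaker between before and early (mean r 0.229 and -0.071, lowest -0.053 for the same tumor). It was also weaker between early and late (mean r 0.191 and -0.065, lowest -0.097 for the same tumor). The labels name the tumor, so the tumor was the block.

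Counts were tested with edgeR 4.0.16 (R 4.3.3): filterByExpr with a minimum count of 10, TMM, a robust quasi-likelihood fit on tumor and time group with all 13 libraries, and Benjamini-Hochberg adjustment over 20118 genes at 0.05. The standard error is the log2 fold change divided by the square root of F. CPM used the same TMM library sizes, and log2 values a prior count of 2. Ratios between libraries carry exact 95% intervals for counting error only, because duplicate reads of a molecule could not be told apart. P-values measure the spread between biopsies. The fits were first tested on simulated counts in which 200 genes changed by 3 log2 units early against before. All genes had the same coefficient of variation, and a changed gene changed alike in every tumor. At a coefficient of variation of 0.672, edgeR recovered 108 with 0.917% of its calls false, and DESeq2 170 with 21.7%. At 0.2 both recovered 200, with 5.21% and 12.3% of calls false. No pair of libraries was alike within counting noise (lowest chi-square per degree of freedom 44.5).

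The members, classes and gene lists were chosen with earlier results of these data known. KRT41, KRT88, KRT89, KRT124 and KRT127 were in no listed class and were put with KRT23, KRT24, KRT42 and KRT222. Genes were named by a rule: KRT8, KRT18, KRT19, KRT5, KRT14, KRT1 and KRT10, up to 3 members of each other class by mean CPM, the 3 smallest p values in each direction of each comparison, and the leading member per kilobase in each library. Any other gene named was chosen after its values were seen. Alternatives were RLE factors, no filter, no block, each tumor left out, only the libraries compared, DESeq2 1.42.0, summed late RV sites, other totals, a prior count of 0.5 and either late RV site alone. Leaving out RV at 2 days was added after seeing the data. Positions are those of the RefSeq annotation of UU_Cfam_GSD_1.0.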

Additional observations from a re-analysis of the deposited data

Results flagged for a closer look

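Summed over class, the epidermal keratins KRT1 and KRT10 gave 9.96 log2 CPM in RV at 2 days, far from the other 3 early libraries, which gave 4.20 to 4.82. KRT10 alone was equally apart, at 9.15 log2 CPM in RV at 2 days and 4.15 to 4.82 in the other 3 early libraries. In all, 42 sets of 4 or 5 libraries were examined for such a distant value, of which chance would give about 2.1.

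The change of the sarcoma was opposite to that of all 3 mammary tumors in 5 results, and none of these differences was tested. How many results were examined for this is not given here, and 1 tumor of 4 can differ in sign by chance. Early against before, the epidermal class changed by 4.56 log2 units in RV and by -0.89 to -0.19 in the mammary tumors, KRT1 by 9.0 compared with -7.29 to -0.50, and KRT10 by 3.78 compared with -0.59 to -0.17. These 3 rest on the RV library at 2 days, which also held the cornified envelope genes. They overlap, because the epidermal class is the sum of KRT1 and KRT10. Late against before, KRT10 changed by -1.06 in RV and by 0.09 to 0.49 in the mammary tumors, and KRT5 changed by 0.21 in RV and by -5.37 to -0.08 in the mammary tumors.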

How the results depend on the processing

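Under every alternative run the class changes kept their direction or moved by less than the spread between tumors. Leaving out 1 tumor can shift a mean by only part of that spread, so this rule could not fail there. Some class means spanned 0 when each tumor was left out. Late against before these were luminal -1.40 to 0.24, basal -1.92 to 0.08, wound -2.40 to 0.28, epidermal -0.37 to 0.14 and inner root sheath -1.18 to 1.21. Early against before they were epidermal -0.56 to 1.26 and keratin-associated proteins -0.44 to 2.79. The other class means in that check kept their sign. The count of members called by edgeR was 0 in each comparison and stayed 0 with each tumor left out in turn (0 to 0), without RV at 2 days, with RLE factors, with summed late RV sites and with only the libraries compared. DESeq2 called 2 of 27 members early against before (4.75% of genes) and 14 late against early (23.9% of genes), and edgeR without the filter on low counts called 6 of 68 late against early (3.06% of genes). In the check of pairing, taking the tumor block out also gave 0 calls, but it turned the sign of uncalled fold changes (log2): early against before KRT8 -0.53, KRT18 -0.34, KRT14 -0.19, KRT7 -0.87, KRT15 -0.21, KRT17 -0.26, KRT79 -1.69, KRT13 -0.20, KRT222 -3.07, and late against early KRT19 0.36, KRT7 0.42, KRT222 4.69. Signs also turned with summed late RV sites (early against before KRT1 -0.58, and late against before KRT10 0.24, and late against early KRT19 0.055), with DESeq2 (early against before KRT1 -0.79), with RLE factors (late against early KRT222 0.0041) and without RV at 2 days (early against before KRT1 -2.64, KRT10 -0.63, KRT17 -0.0011, KRT79 -1.18, KRT3 -0.12, KRTAP11-1 -0.52, and late against before KRT19 0.030, and late against early KRT19 0.57, KRT1 0.44, KRT10 0.50, KRT72 0.77). None of these was called by edgeR, and the cause was not tested. Leaving out each tumor in turn gave uncalled log2 fold changes that spanned 0: early against before KRT8 -0.27 to 1.40, KRT19 -0.64 to 0.49, KRT1 -3.85 to 4.12, KRT10 -0.38 to 1.95, KRT7 -0.58 to 0.67, KRT20 -3.69 to 0.19, KRT15 -0.42 to 1.25, KRT17 -0.44 to 4.18, KRT6A -0.46 to 5.32, KRT79 -1.26 to 5.14, KRT13 -0.54 to 2.10, KRT3 -0.13 to 0.66, KRT222 -1.0 to 1.15, KRTAP11-1 -0.74 to 4.0, and late against before KRT19 -0.76 to 0.81, KRT14 -2.57 to 0.70, KRT10 -0.28 to 0.32, KRT15 -1.58 to 0.46, KRT16 -2.74 to 1.28, KRT79 -4.13 to 1.60, KRT13 -2.33 to 0.57, KRT72 -1.91 to 1.95, KRT222 -0.19 to 1.05, KRT23 -1.39 to 0.18, and late against early KRT19 -0.54 to 0.46, KRT10 -2.15 to 0.70, KRT7 -1.64 to 0.11, KRT20 -3.42 to 0.0095, KRT72 -4.79 to 0.80, KRT222 -1.22 to 1.45. Each tumor gave 1 library per time apart from RV at 2 weeks, so spread between tumors and between pieces of 1 tumor cannot be told apart, and depth limits members near the floor of 3 counts.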
